A study of Mus musculus with 2 samples.

Results

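The genes described here are 39 transcription factors grouped under the name of craniofacial and tooth patterning. They are the Msx, Dlx, Barx, sine oculis-type, LIM, paired-type, Irx, Meis and Hmx homeodomain proteins, the paired-domain protein Pax9, 4 T-box proteins, the bHLH proteins Hand1, Hand2 and Twist1, the Runt protein Runx2 and the zinc finger protein Osr2. Some of the 39, such as Six5, Hmx2 and Tbx20, are known mainly from other organs than the face and the teeth. Members were found by an exact match of the gene name printed with each probe, and all 39 were among the 37074 gene names on the array. They were read by 71 probes of 60 bases, 1 probe for 21 genes and several for 18. Expression was measured in mDE6 cells, a mouse line labelled as odontogenic epithelium, the epithelium that forms teeth. There was 1 array of cells given the vehicle DMSO (written 0/1%DMSO in the label) and 1 array of cells given CHIR99021, both for 6 h. CHIR99021 inhibits the kinase GSK-3 and so activates the β-catenin pathway. The label gives its dose as 5 mM, where the paper writes 5 μM. The paper also calls the control untreated, whereas the label names DMSO. No genetic change is named in the labels for either group, and no strain or age is given with the cells. The paper used the arrays to look for β-catenin targets behind slower growth, among genes lower after CHIR99021, while the series' design text names lower and higher genes.

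Teeth form where oral epithelium thickens, buds into the mesenchyme below it and folds around it. Each layer of the young jaw carries its own set of homeodomain and other transcription factors, and their overlapping domains set where teeth form and which shape they take. Signals of the Bmp, Fgf, Wnt and Shh families pass between the layers and turn these factors on or off. Several of the factors, such as Msx1 and Pax9, are needed in the mesenchyme for a tooth bud to go on developing. Others, such as Pitx1 and Irx1, mark the epithelium.

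Each value comes from 1 spot of 1 probe, so the probes that carried the results are shown here, as the first 30 of their 60 bases in the 5′ to 3′ direction. They are the probes of the 7 genes that met the criteria described below, with a second probe of Lhx8 and of Hmx2. The probe of Isl1, read on the CHIR99021 array alone, and 2 Meis2 probes that read differently are shown as well, although Isl1 passed the limit on the ratio alone and the compared Meis2 probe passed neither limit. Each lies in the gene named with it, but the exon or UTR is not stated in the files. No part is set in capitals, because no site within a probe matters for the reading.
Dlx1: gttgtcaaaaacgtttggacaagaacacct
Lhx8: gtgaatttgcaactgaaatttattttgcca
Lhx8, second probe: gggcccgccataagaaacacgtcagcccaa
Six5: cccactgatacccatttcccaaaatttcct
Irx1: ctttgtttcttttttcccctttctgtatat
Irx3: gtctgactctttttgtatatacgggaaaat
Hmx2: cttgaggatgggtaggggcaaaacgaggag
Hmx2, second probe: gcacctgctttctacacaaaaccaaacaac
Tbx20: actaaggagcatgtaagacactgcatttaa
Isl1: cccccaaagatgtgtatagttattggttaa
Meis2: cagcacgtgttcctcactagaagaaaatgc
Meis2, probe at an uneven spot: agaatgactcttcggtttctagctaccagt

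In the mouse build mm9, the build of the files, the Dlx1 probe lies at chr2:71371499-71371558 on the plus strand and the Six5 probe at chr7:19683437-19683496 on the plus strand. The Lhx8 probes lie at chr3:153969377-153969436 and chr3:153974609-153974668 on the minus strand. The Irx1 probe lies at chr13:72095735-72095794 and the Irx3 probe at chr8:94322476-94322535, both on the minus strand. The Hmx2 probes lie at chr7:138700012-138700071 and chr7:138699734-138699793 on the plus strand, and the Tbx20 probe at chr9:24526210-24526269 on the minus strand. The Isl1 probe lies at chr13:117088774-117088833, the first Meis2 probe at chr2:115688896-115688955 and the Meis2 probe of the uneven spot at chr2:115821828-115821887, all on the minus strand. The 71 probes had a GC content of 35.0% to 73.3%, with a median of 40.0% against 41.7% over all probes. Probes of different members shared at most 12 bases in a row, between Prrx1, Tbx2 and Twist1.

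On the vehicle array, factors of the tooth and jaw mesenchyme were detected beside factors of the dental epithelium. A gene counted as detected where at least 1 of its probes was well above background in the scanner software. Of the 39 factors, 33 (84.6%) were detected on the DMSO array, where 48.9% of all gene names and 63.8% of those that are protein-coding symbols in RefSeq were. On the CHIR99021 array 30 were detected, 29 of them on both arrays. With the 99th percentile of negative control spots as the limit, 29 of the 39 were detected on DMSO. These held 3 factors known mainly from dental epithelium and 13 known mainly from mesenchyme. In a culture, fewer cells that express a gene and less RNA per cell cannot be told apart. Signals below are deposited intensities with the error that the scanner software's error model gave them, which is not a replicate SD.

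Among the 6 factors known mainly from dental epithelium, 4 were detected on the DMSO array and 5 on the CHIR99021 array. The signal of Pitx1, a factor of the oral epithelium and of the hindlimb, was 1698 ± 170 on the DMSO array and 1469 ± 147 on the CHIR99021 array. For Dlx3, which is needed for enamel and hair, the signals were 1690 ± 169 and 1518 ± 152. Both lay well above background on both arrays and neither differed by more than its error, with log2 ratios of -0.16 ± 0.20 and -0.10 ± 0.20. Irx1, an Iroquois factor of the dental epithelium, had 2488 ± 249 on DMSO and is described with the lower genes. Tbx1, the T-box factor of the pharyngeal arches, had 77.1 ± 9.14 and 95.4 ± 11. Barx2 was not detected, with signals of 5.11 and 5.80. Isl1, a LIM homeodomain factor of the incisor epithelium, was detected on the CHIR99021 array and not on the DMSO array.

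Among the 18 factors known mainly from dental or facial mesenchyme, 15 were detected on the DMSO array and 14 on the CHIR99021 array. Prrx1 and Prrx2, the paired-related factors of limb and craniofacial mesenchyme, had signals of 14806 ± 1481 and 19910 ± 1991 on DMSO. The signal of Lhx6, a LIM factor of the oral mesenchyme that Fgf8 induces, was 1751 ± 175 on DMSO and 1798 ± 180 after CHIR99021. Barx1, which marks molar mesenchyme, gave 183 ± 19 and 160 ± 17, and Osr2, which restricts the tooth field, gave 81.9 ± 9.77 and 94.1 ± 11.1 at a spot of uneven brightness. These factors of the mesenchyme were thus read in a line labelled epithelial. Alx4, a factor of the frontonasal process, had signals of 5.70 and 6.33 and was not detected. Hand2, which sets the distal lower jaw, was not detected with 6.20 and 6.44, and Hand1 was not detected by either of its 2 probes, with 13.5 and 5.67 at one and 5.36 and 6.03 at the other. The other mesenchymal factors are given by family below.

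Of the 15 factors found in both layers or in no set layer, 14 were detected on the DMSO array and 11 on the CHIR99021 array. Tbx2, a T-box repressor, was not detected on either array, with signals of 15.4 and 6.13. Its relative Tbx3 was read on both arrays, at 1329 ± 133 and 1218 ± 122. Hmx2, Hmx3 and Tbx20 were detected on the DMSO array alone. Taking the arrays together, 34 of the 39 genes had a probe well above background on at least 1 array and could be compared, and 29 of these had their chosen probe above background on both.

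**Figure D1:**
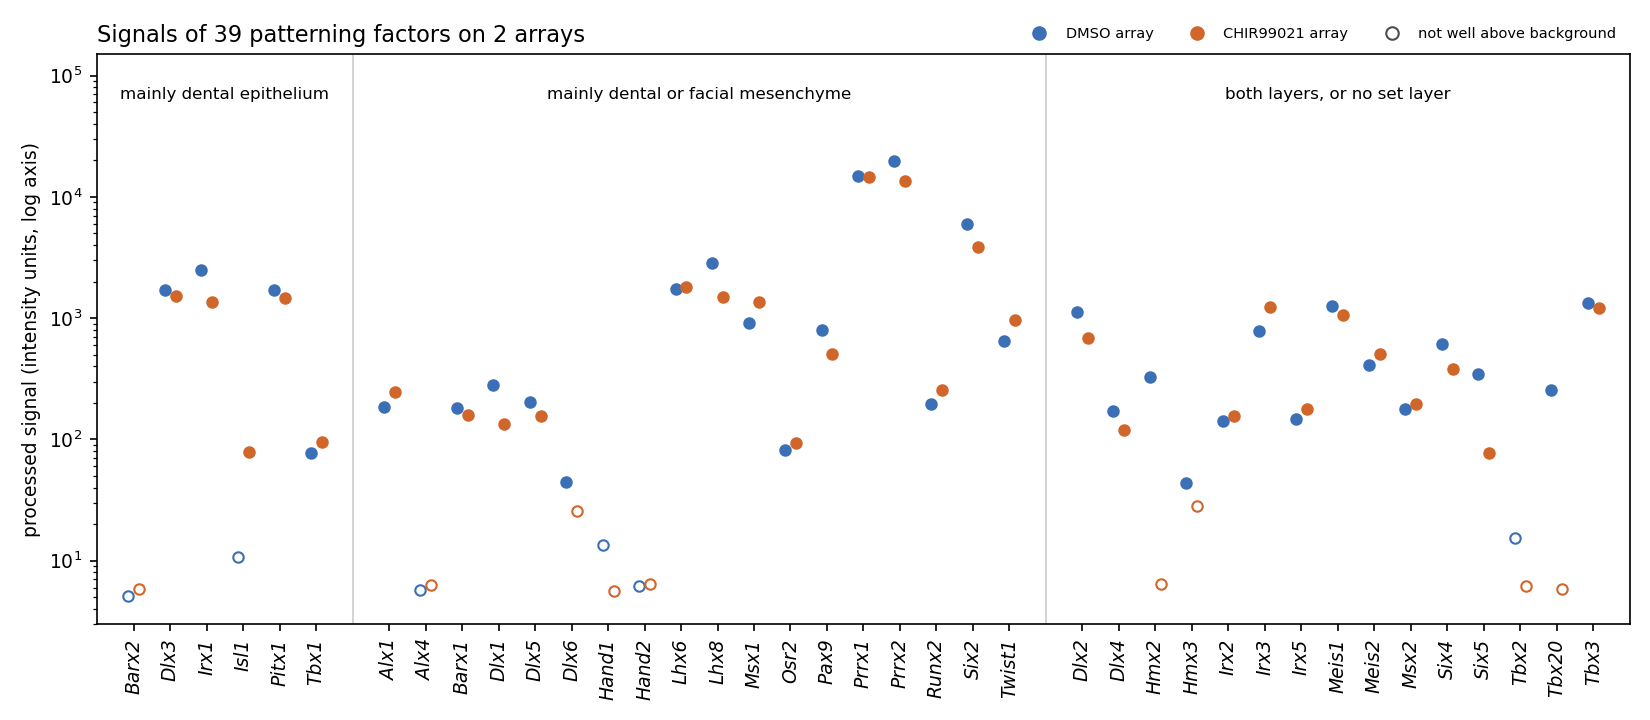
Processed signal (intensity units, log axis) of the 39 factors on the DMSO array (blue) and the CHIR99021 array (orange), each by the compared probe, grouped by the tissue layer in which they are mainly known. Open circles mark signals not well above background; 33 factors have a detected probe on the DMSO array and 30 on the CHIR99021 array, and signals of different probes are not comparable with each other.

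The cell type label was checked against markers of both layers. Of 12 epithelial cell markers, 5 were detected on the DMSO array and 4 on the CHIR99021 array. Cdh1, which encodes the adhesion molecule E-cadherin, gave 5.51 and 6.13, and Epcam gave 5.23 and 5.76, neither above background. Krt8, a keratin of simple epithelia, gave 5.40 and 6.02 and was also not above background. Of the markers that were detected on DMSO, Cdh3 (P-cadherin) had a signal of 649, Cldn7 59.4, Krt7 54.3 and Krt14 48.5. Among these, Cdh3 alone lay above 112, the 99th percentile of negative control spots on that array. Krt5, a basal keratin, was the single epithelial marker that met the criteria for a difference given below, from 5.51 on DMSO to 165 after CHIR99021, at least 7.24-fold higher at a spot whose pixel SD was 0.323 of its mean. Where a signal was not above background, as that of Krt5 on DMSO, the fold is a bound taken against the lowest signal well above background on that array. Of 12 mesenchymal cell markers, 11 were detected on both arrays, and Lum was not. The signals of the collagen genes Col1a2 and Col1a1 were 270783 and 122887 on DMSO, that of the fibronectin gene Fn1 122012 and that of the vimentin gene Vim 52302. The defining epithelial marker Cdh1 was thus not detected in cells labelled as odontogenic epithelium, and the cells are called by their line name here.

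The summed signal of the 12 epithelial markers was 892 on DMSO and 743 after CHIR99021, and that of the 12 mesenchymal markers was 607907 and 552319. Single probes make up most of these sums, Cdh3 in the first (649 and 381) and Col1a2, Col1a1 and Fn1 in the second, so that the sums do not stand for the lists. All 11 mesenchymal markers measured on both arrays had a ratio below 1, with a median log2 ratio of -0.25, and none met the criteria. Their part in the ratios of the patterning factors was not tested. The treatment label was checked with target genes of β-catenin. Lef1 had a signal of 239 on DMSO and 690 after CHIR99021, 3.0-fold higher, and met these criteria. Axin2 was at least 1.66-fold higher without meeting them, and Nkd1 at least 25.8-fold higher, both read on the CHIR99021 array alone, and the Nkd1 spot had a pixel SD of 0.401 of its mean.

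**Figure D2:**
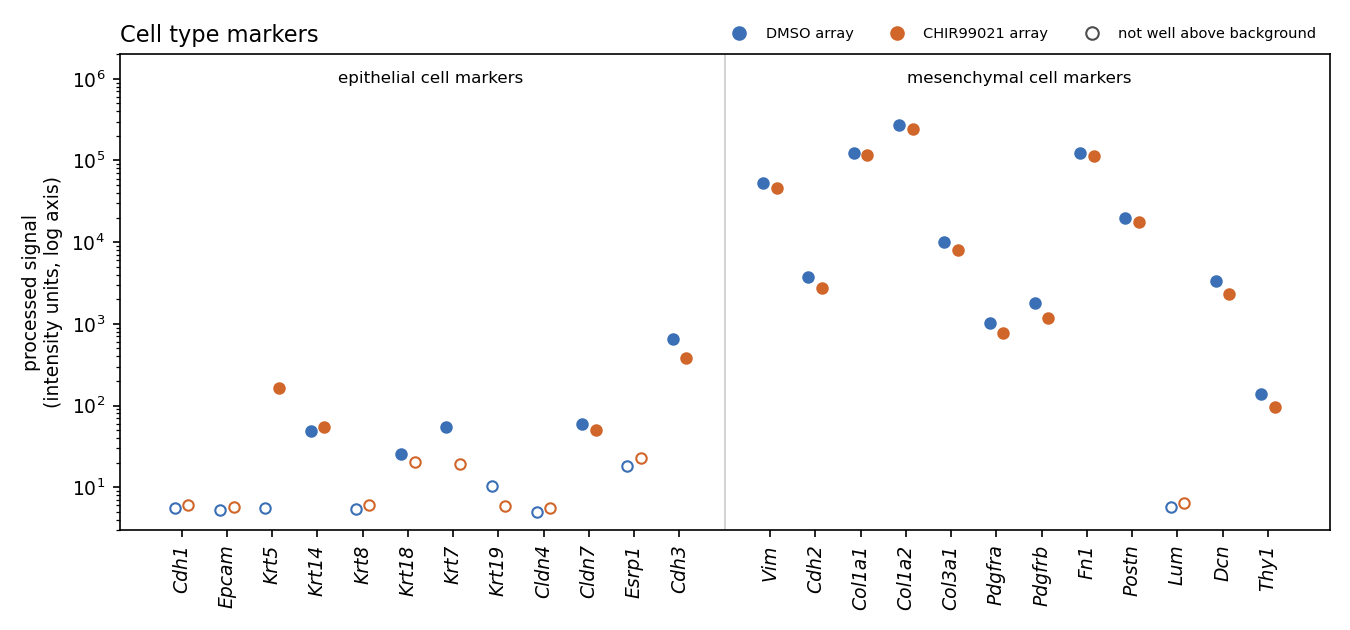
Processed signal (intensity units, log axis) of the 12 epithelial and 12 mesenchymal cell markers on the DMSO array (blue) and the CHIR99021 array (orange), with open circles for signals not well above background. On the DMSO array 5 epithelial and 11 mesenchymal markers are filled, and Cdh1, Epcam and Krt8 are open on both arrays.

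After CHIR99021, 6 of the 34 compared factors were lower and 1 was higher. The ratio is the CHIR99021 signal over the DMSO signal, each divided by the 75th percentile of its array. A gene was called lower where the ratio reached 0.66 or less together with a Z-score down to -2.0 or beyond. It was called higher where the ratio reached 1.5 or more and the Z-score 2.0 or more. The Z-score set the log2 ratio against the 500 probes nearest in mean signal. The lower genes were Dlx1, Lhx8, Six5, Irx1, Hmx2 and Tbx20, which is 17.6% of those compared, where 3.22% of all 18837 gene names compared were lower. The higher gene was Irx3, 2.94% of those compared against 2.63% of all gene names. These shares describe 1 array per condition, with no replicate check and no p-value. The factors were chosen with earlier results of these data known. The paper also lists Dlx1, Six5, Hmx2 and Tbx20 among the genes lowered on these arrays. The share of lower factors therefore cannot be set against that of all gene names as an independent result. Hmx2 and Tbx20 were read on DMSO alone, and the other 4 lower genes and Irx3 on both arrays.

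Over the 29 factors measured on both arrays, 16 had a ratio below 1 and 13 above 1. Their median log2 ratio was -0.10, and that of all 16886 gene names measured on both arrays was 0.03, of which 44.9% had a ratio below 1. The median size of the log2 ratio, whatever its sign, was 0.44 for the factors and 0.20 for all gene names. The choice of the factors with earlier results known limits this comparison, and the shares below, in the same way. By the ratio alone, 10 of the 34 compared factors were at or below 0.66, where 9.67% of all gene names were, and 4 were at or above 1.5, where 8.05% were. Of the 29 measured on both arrays, 7 were at or below 0.66, 3 at or above 1.5, and 19 lay between these limits. The median log2 ratio was -0.13 for the 4 epithelial factors measured on both arrays, -0.06 for the 14 mesenchymal ones and -0.07 for the other 11. The medians of the 3 layer groups lay close together, while single genes in each ranged more widely, from -0.81 to 0.36, from -1.0 to 0.63 and from -2.10 to 0.71.

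**Figure D3:**
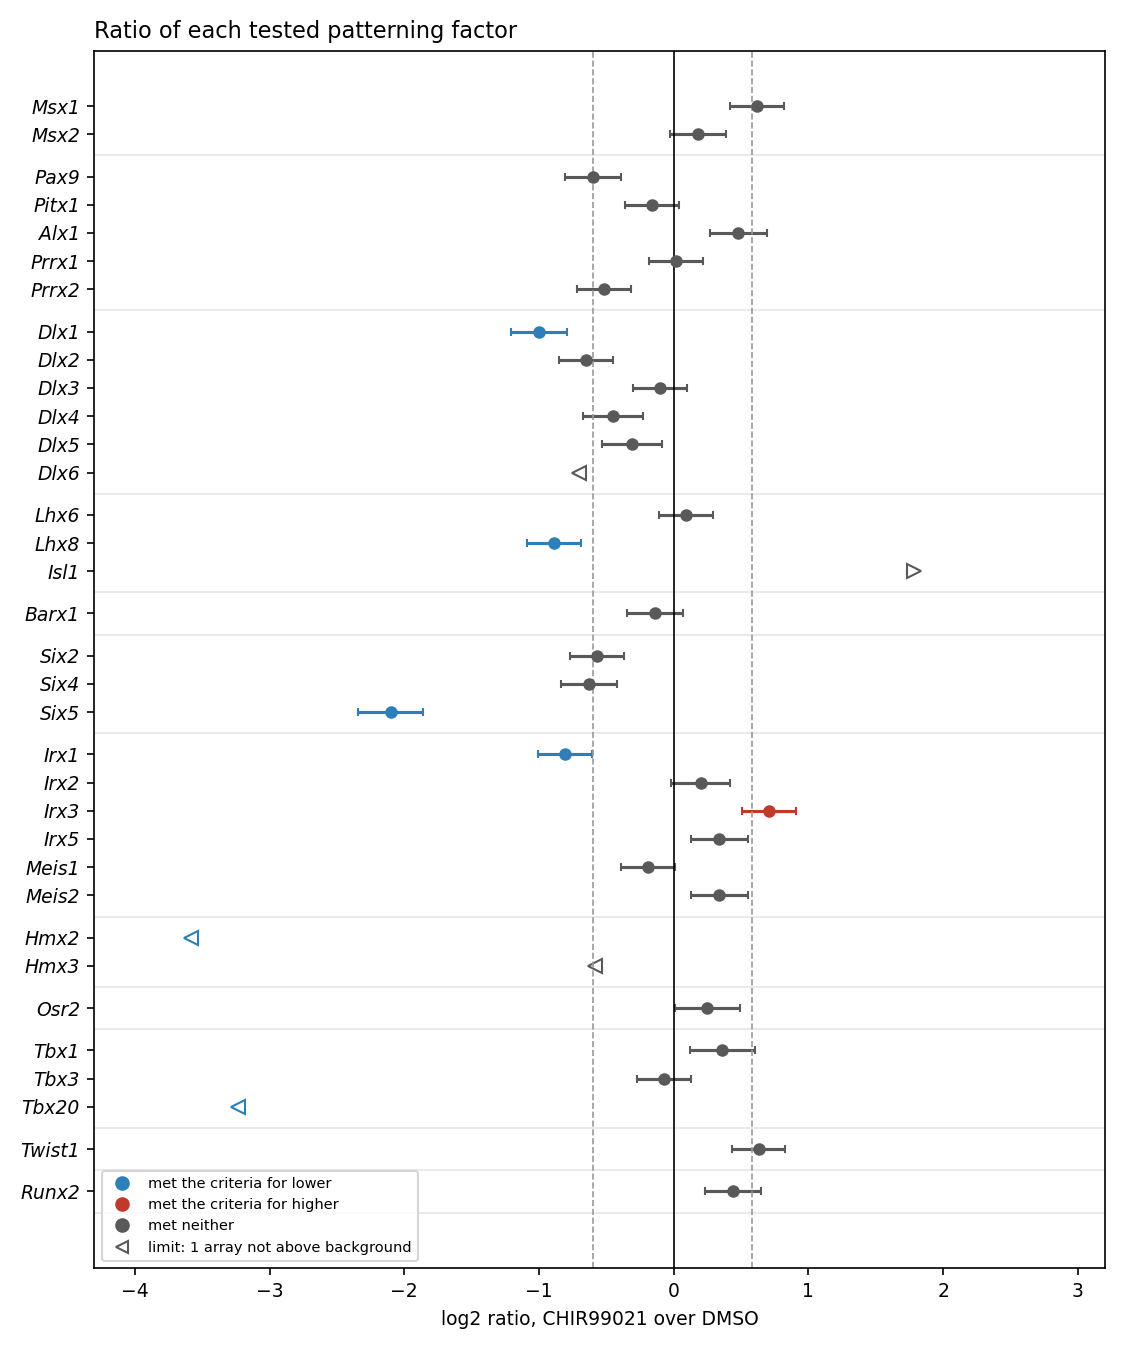
Log2 ratio of CHIR99021 over DMSO for the 34 compared factors, grouped by protein family, with bars for the error propagated from the scanner software's error model. Dashed lines are the ratios 0.66 and 1.5, blue and red mark the genes that met the criteria for lower and higher, and triangles are limits for genes read on 1 array; all Dlx genes and the genes Six2, Six4 and Six5 lie left of 0, and both Msx genes right of it.

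The 6 Dlx genes, homologues of Drosophila Distal-less, act in linked pairs to set the identity of the upper and lower jaw. All 6 were detected on the DMSO array, and all 6 had a computed ratio below 1 under each of 8 scalings, where 44.9% of all gene names measured on both arrays were below 1. Dlx1 had a signal of 279 ± 28.3 on DMSO and 134 ± 14.4 after CHIR99021. On the log2 scale the ratio of 0.499 is -1.0 ± 0.21, its Z-score was -2.10, and no other gene of the family met the criteria. A second Dlx1 probe was not above background on either array. Dlx2, its partner in the upper jaw and molars, had 1121 ± 112 and 689 ± 69.1, a ratio of 0.637. The Z-score of Dlx2 was -1.87, so that it passed the limit on the ratio and missed that on the Z-score. The Dlx1 and Dlx2 probes lay 10.1 kb apart on chromosome 2, and their log2 ratios differed by -0.35 ± 0.30. Dlx4, a factor of the branchial arches, had 170 ± 17.8 and 120 ± 13.5, a ratio of 0.733. Its neighbour Dlx3, 15.4 kb away on chromosome 11, had a ratio of 0.932, and the pair differed by 0.35 ± 0.30. Dlx5, which with Dlx6 gives the lower jaw its identity under endothelin signalling, had 202 ± 21.1 and 157 ± 17, a ratio of 0.809. The signal of Dlx6 was 44.5 ± 7.51 on DMSO and 25.7 after CHIR99021, the latter not above background, so that it was at least 1.63-fold lower, against a ratio of 0.871 with normexp background correction. The ratios of the 5 Dlx genes measured on both arrays ran from 0.499 to 0.932, with a median log2 ratio of -0.45.

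Six2, Six4 and Six5, homologues of Drosophila sine oculis that work with Eya proteins, also had ratios below 1 under all 8 scalings. The lowest ratio of any factor measured on both arrays was that of Six5, a gene next to Dmpk known from muscle and eye. Its signal was 345 ± 34.9 on DMSO and 77.4 ± 9.93 after CHIR99021, a ratio of 0.233. Its log2 ratio was -2.10 ± 0.24 and its Z-score -4.15. The spot was even in brightness on both arrays, and no probe within 3 rows and columns was lost. A neighbouring probe is called lost where it was above background on DMSO alone and over 4-fold lower by its computed ratio, and gained in the opposite case. The signal of Six2, a factor of kidney progenitors and of the frontonasal mesenchyme, was 5980 ± 598 and 3879 ± 388. Its ratio of 0.673 stood just outside the limit of 0.66 although the Z-score was -2.10. It met the criteria in 5 of the 8 scalings, where its ratio ranged from 0.637 to 0.688. Six4, which acts in muscle and placode development, had 614 ± 61.7 and 382 ± 38.7, a ratio of 0.644, and the Z-score was -1.69. A second Six4 probe gave 0.742.

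Among the LIM homeodomain factors, Lhx8 was lower and its relative Lhx6 was not. Both act in the oral mesenchyme of the jaws. Lhx8 had a signal of 2845 ± 285 on DMSO and 1479 ± 148 after CHIR99021, a ratio of 0.539. The log2 ratio was -0.89 ± 0.20 and the Z-score -2.68. The second Lhx8 probe printed above read 187 ± 19.4 and 154 ± 16.4, a ratio of 0.855 (Z-score -0.45), and did not meet the criteria. With the mean of both probes the ratio of Lhx8 was 0.679, outside the limit. Lhx6 had a ratio of 1.07, and its log2 ratio differed from that of Lhx8 by 0.98 ± 0.29. The signal of Isl1 was 10.8, not above background, on DMSO and 78.8 ± 10.1 after CHIR99021, so that it was at least 3.45-fold higher, against a ratio of 1.92 with normexp. It did not meet the criteria because its Z-score was 1.73. The pixel SD of the Isl1 spot after CHIR99021 was 0.260 of its mean, just under the limit of 0.261 for an uneven spot, and a second Isl1 probe was not above background on either array.

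The Iroquois genes lie in clusters and pattern the epithelium, the heart and the limbs. Irx1 and Irx3 moved in opposite directions. Irx1 had a signal of 2488 ± 249 on DMSO and 1364 ± 137 after CHIR99021, a ratio of 0.569. This is -0.81 ± 0.20 on the log2 scale, and the Z-score was -2.72. Irx2, which shares its cluster, had 142 ± 15 and 157 ± 16.6, a ratio of 1.15. Their probes lay 675.1 kb apart on chromosome 13, and the log2 ratios differed by -1.01 ± 0.30. Irx3 had 790 ± 79.1 and 1246 ± 125, a ratio of 1.64. This is 0.71 ± 0.20 on the log2 scale, and the Z-score was 2.06. Irx5, which acts with Irx3 in the heart and the limb bud, had 146 ± 15.4 and 179 ± 18.7, a ratio of 1.27. The Irx3 and Irx5 probes lay 562.4 kb apart on chromosome 8, and their log2 ratios differed by 0.37 ± 0.30. Irx1 met the criteria in all 16 settings, the one used here included, and Irx3 in all 15 that gave it a value.

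The Meis proteins are TALE homeodomain partners of Hox and Pbx proteins. Meis1 had signals of 1262 and 1068, a ratio of 0.878 and a log2 ratio of -0.19 ± 0.20. The signal of Meis2, which is needed in cranial neural crest, was 412 ± 41.6 and 503 ± 50.7 at its compared probe, a ratio of 1.27. Other Meis2 probes gave 1.34 and 0.897 on both arrays, and a further one, read on the CHIR99021 array alone, was at least 2.02-fold higher. The probe printed above as lying at an uneven spot was above background on both arrays and read 520 ± 52.4 after CHIR99021, 5.04 times its scaled DMSO signal (Z-score 5.15). Its pixel SD was 0.275 of its mean after CHIR99021, and 5 probes within 3 rows and columns were gained. The Meis2 probes thus did not give 1 value for the gene.

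Msx1 and Msx2, homologues of Drosophila muscle segment homeobox, act downstream of Bmp signals in the tooth bud. Both had ratios above 1 under all 8 scalings, and neither met the criteria. Msx1, without which teeth stop at the bud stage, had 913 ± 91.5 and 1356 ± 136, a ratio of 1.54 that passed the limit of 1.5, while the Z-score was 1.78. Msx2, which acts in enamel and in the skull, had 178 ± 18.5 and 195 ± 20.3, a ratio of 1.14, and a second probe gave 1.07. Twist1, the bHLH factor of cranial neural crest and skull sutures, had 647 ± 64.9 and 967 ± 96.9. Its ratio of 1.55 also passed the limit on the ratio, and its Z-score of 1.67 did not reach 2.0. Runx2, the master regulator of bone cells that is also needed for teeth, had 195 ± 20.2 and 254 ± 26.2, a ratio of 1.35. Other Runx2 probes gave 1.19 and 0.916.

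Pax9 and the paired-type homeodomain factors were split. Pax9, which like Msx1 is needed in the mesenchyme of the bud, had 798 ± 80.1 and 507 ± 51.1. Its ratio of 0.659 lay just inside the limit, and its Z-score of -1.72 did not reach -2.0. Prrx2 was read by 3 probes that gave ratios of 0.697, 0.70 and 0.706. These agree within the error of each log2 ratio, which was 0.20, and all lay above the limit of 0.66. Their Z-scores were -2.37, -2.36 and -1.87, so that the first and the second passed the limit on the Z-score. With the deposited normalized table the log2 ratio of Prrx2 was -0.61 and it met the criteria. The paper also lists Prrx2 among its lowered genes. Prrx1, its relative, had ratios of 1.01, 0.910 and 1.34 at its 3 probes, the last with signals of 35.8 ± 6.48 and 46.1 ± 7.64. At the compared probes, the log2 ratios of Prrx1 and Prrx2 differed by 0.54 ± 0.29. Alx1, a factor of the frontonasal mesenchyme, had 184 ± 19.3 and 247 ± 25.5, a ratio of 1.39. Barx1 had a ratio of 0.907, Osr2 1.19, Tbx1 1.28 and Tbx3 0.951, and none of these met the criteria.

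**Figure D4:**
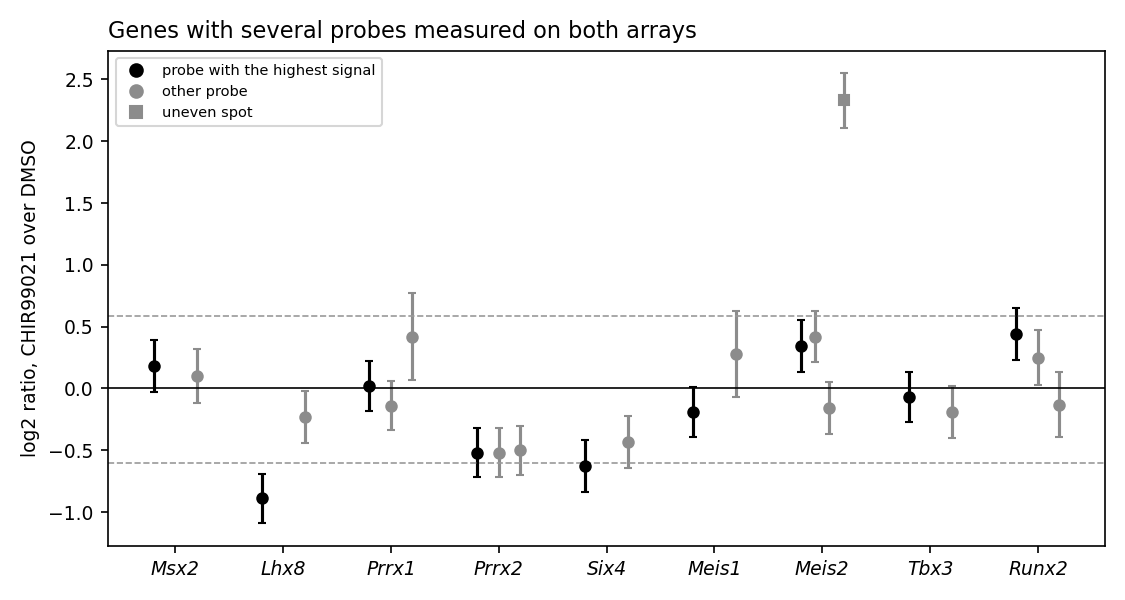
Log2 ratio of CHIR99021 over DMSO for the 9 factors with several probes measured on both arrays, with bars for the error propagated from the scanner software's error model. Black points are the compared probe, grey points the other probes and the square the uneven Meis2 spot; dashed lines are the ratios 0.66 and 1.5. The 3 Prrx2 probes lie together near -0.5, the 2 Lhx8 probes lie apart, and the Meis2 square lies at 2.33 above the other Meis2 probes.

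Hmx2 and Tbx20 were the genes with the widest differences, and both were read on DMSO alone at uneven spots. Hmx2, a homeodomain factor of the inner ear and hypothalamus, had 328 ± 33.3 on DMSO and 6.42 after CHIR99021, at least 12-fold lower. With normexp background correction, which adds an offset of 50 to every signal, its ratio was 0.201, outside that bound. The pixel SD of its spot on DMSO was 0.404 of its mean, where 0.260 was the limit for an even spot, and 9 probes within 3 rows and columns were lost. The second Hmx2 probe was not above background on either array, with 16.0 and 9.83. Tbx20, a T-box factor of the heart, had 256 ± 26.1 and 5.88, at least 9.39-fold lower, against a ratio of 0.227 with normexp. Its pixel SD was 0.402 of the mean on DMSO, 3 neighbouring probes were lost, and its other 4 probes were not above background on either array. The part of the spots' unevenness in these values was not tested. Hmx3, which lies beside Hmx2 and acts with it in the ear, had 43.6 ± 6.95 and 28.0, the latter not above background, and did not meet the criteria. Without uneven spots, the lower genes were Dlx1, Lhx8, Six5 and Irx1, 4 of 31 factors compared, where 508 of 17717 gene names were lower.

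Of the 34 compared probes of the factors, 24 were printed in later rows, past the middle of the array, as were 51.6% of all compared probes. The probes of 5 of the 6 lower genes and that of Irx3 lay there, and that of Irx1 lay in the earlier rows. The compared probe of Lhx8 lay in row 256 and its second probe in row 81. In the earlier rows alone, 17 factors had a probe to compare, of which 1, Irx1, was lower and 0 were higher. Of the 10885 gene names compared there, 306 were lower and 216 higher. The part of the position on the slide in these values was not tested, and the position of the arrays on the slide cannot be told apart from the treatment.

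**Figure D5:**
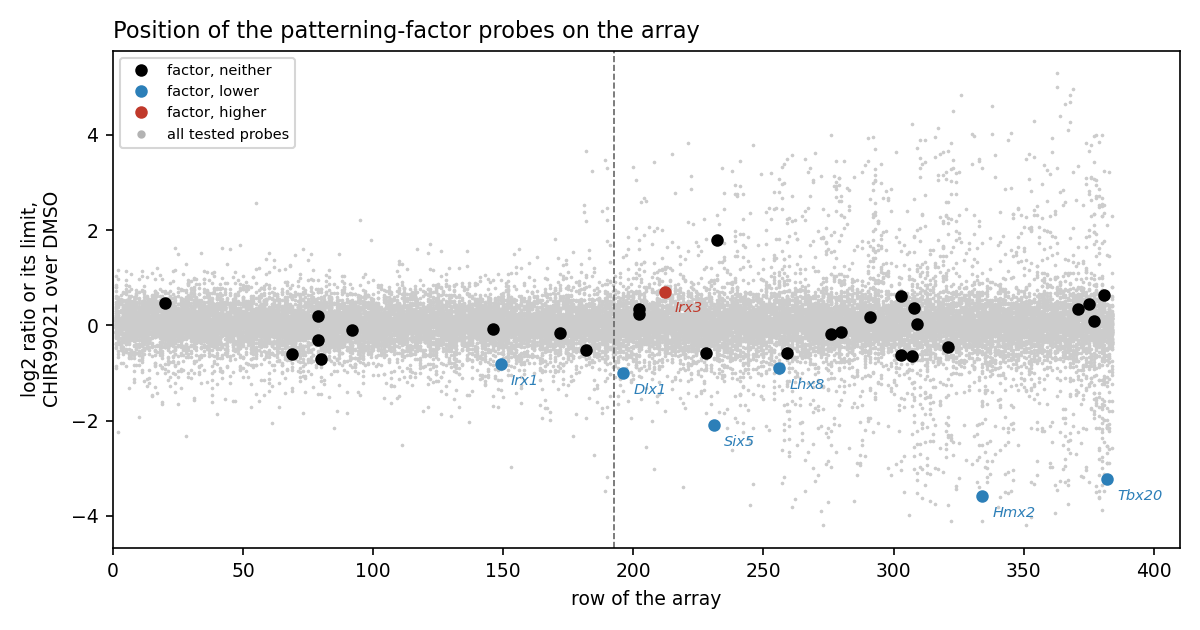
Log2 ratio of CHIR99021 over DMSO, or its limit where 1 array was not above background, against the row of the array for the compared probes of the 34 factors (large points) and all compared probes (small grey points). The dashed line is the middle of the array; Irx1 is the coloured point left of it, and the other 5 lower genes and Irx3 lie right of it.

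The proteins that these factors work with were read in the same way from fixed lists. Of 19 cofactors, among them the Pbx, Eya, Ldb and Tle proteins and the E proteins that pair with Twist1, 17 were detected on DMSO. None was lower or higher, and the median log2 ratio over the 16 measured on both arrays was 0.04. Of 10 other factors of the dental epithelium, 4 were detected on DMSO, including Trp63, and none met the criteria, with a median of 0.11 over those 4. Of 15 other factors of craniofacial mesenchyme, 13 were detected on both arrays, and their median log2 ratio was -0.15.

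Of 9 ligands that act upstream of the factors in the jaw, 4 were detected on both arrays and 2 of these were lower, where 3.22% of all gene names compared were. Bmp4, which induces Msx1 and represses Barx1 in the jaw, had a signal of 22400 on DMSO and 13803 after CHIR99021, a ratio of 0.639 (Z-score -2.83), at a probe in the earlier rows. Wnt5a, a ligand of the mesenchyme, had 807 and 422, a ratio of 0.543 (Z-score -2.23), at a probe in the later rows. The median log2 ratio of the 4 was -0.40. The ligands too were listed with earlier results of these data known, and the paper lists Bmp4 and Wnt5a as lowered. Fgf8, which induces Lhx6 and Barx1, and Shh, a ligand of the dental epithelium, were not above background on either array. The ligand's level was lower for Bmp4 while its target Msx1 had a ratio of 1.54, and no link between them was tested.

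Because β-catenin acts on DNA through Tcf and Lef proteins, the promoters were searched for their core motifs. The letters searched were CTTTGAA and its variant CTTTGAT, as well as CTTTGTA and its variant CTTTGTT, none of which overlaps another at the same position. They were searched on both strands in the 250 bases before each start site of the RefSeq promoter table of build GRCm38.p6, which held 25 of the 39 factors. A match was found in 2 of these 25 (8%), where 16.8% of the 27025 genes in the table held one. The windows of 30 bases around both matches are shown with the match in capitals, since Six5 had the lowest ratio among the factors measured on both arrays and Lhx6 had a ratio near 1.
Six5: agacggagggaaAACAAAGaatcctgacag
Lhx6: ttaaatgcccacTACAAAGttaggactcat

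The Six5 window lies at chr7:19094415-19094444 on the plus strand, with the match at position -117 from the start site, and the Lhx6 window at chr2:36104071-36104100, read on the minus strand. Both matches are the motif's reverse complement. Of the 5 lower genes with a promoter in the table, 1 held a match, as did 0 of the 1 higher gene and 1 of the 18 that met neither criterion. A match describes these letters and is not a binding site.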

How the data were processed

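Total RNA of mDE6 cells was labelled with Cy3 and hybridised to Agilent arrays, 1 per condition, both on the same slide. The authors deposited the processed intensity of each spot, background-subtracted and not normalized between arrays, from Feature Extraction (10.7.1.1 per the file headers, 9.5.1.1 in the submitters' processing notes), and a table of normalized intensities, used as an alternative. The paper names a human array, whereas the file headers name a mouse design and mm9. Each array held 59305 spots of 56605 probes beside its controls; 49.8% were well above background on DMSO and 48.3% after CHIR99021, and 0 were saturated. The number of arrays limits the precision.

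The log2 of each intensity over the 75th percentile of its array (486.7 and 469.2) was taken in Python 3.11.15 (pandas 2.3.3, numpy 2.4.6). Outlier spots (101) were left out and spots of a probe averaged. Probes were compared where either array had them well above background (28066), each gene by its probe of highest mean signal. A probe not above background gave a limit against the lowest signal well above background (23.7 on DMSO, 26.3 after CHIR99021); criteria used the computed ratio. No statistical test was possible with 1 array per condition. Errors of log2 ratios, 0.20 to 0.24 for the factors measured on both arrays, were propagated from the error model. The SD of log2 ratios over 278 probes printed several times was 0.03, which covers spot error alone. Uneven spots had a pixel SD over mean above 0.26 (DMSO) or 0.261 (CHIR99021), the 99th percentile of the earlier rows.

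The factors and all lists were chosen with earlier results of these data known. Every factor was named with its values; list genes were named where they met the criteria (some are not reported here), markers also by the 4 highest signals, and other genes named were chosen after their values were seen. All 39 symbols, and the accessions of 57 of the 71 probes, matched the RefSeq table. Calls were tested on simulated data with normally distributed noise, which held no uneven spots and no effect of the position on the slide. Alternatives were quantile, median, cyclic loess and other percentile scaling, no scaling, normexp with an offset of 50 (limma 3.58.1, R 4.3.3), the deposited table, other filters, detection flags, floors, probe rules and Z-scores. Figures used matplotlib 3.10.9.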

Additional observations from a re-analysis of the deposited data

How the results depend on the processing

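Over all settings, 417 values of single factors were recomputed; 232 stayed within the spot-to-spot SD of 0.03 on the log2 scale, and 185 moved by more. The sign changed in 9 of the 417, none of a lower or higher factor: 7 were of Prrx1, whose ratio is near 1, and Meis1 (from -0.19 to 0.28) and Runx2 (from 0.44 to -0.13) changed in the earlier rows alone, where another probe is read. Dlx1, Lhx8, Six5, Irx1, Hmx2 and Tbx20 were lower and Irx3 higher under each of 8 scalings; Six5 ranged from 0.224 to 0.367, the highest under normexp. The median log2 ratio of the factors, -0.10, was -0.07 with median scaling, -0.14 with quantile or cyclic loess normalization or the deposited normalized table, and -0.15 with no scaling or a percentile restricted to probes above background on both. The number of higher factors, 1, became 2 with normexp, with a floor on low signals or without uneven spots (Isl1 added in each), 4 with the median and MAD or the ratio alone, and 0 in the earlier rows alone. The number of lower factors, 6, became 10 by the ratio alone, 9 with the median and MAD (Pax9, Dlx2 and Six4 added), 5 with the mean over probes (without Lhx8) and 1 in the earlier rows alone, and was 4 without uneven spots or over probes above background on both arrays; Six2 was added in 5 of the 8 scalings and Prrx2 in 1. The cause of these moves was not tested. Earlier rows alone hold fewer probes, and there 17 factors were detected on DMSO in place of 33, and 8 mesenchymal ones in place of 15. Over all gene names, 606 were lower and 495 higher, against 1822 and 1516 by the ratio alone, 1009 and 891 with the median and MAD, and 778 higher with no filter. Without uneven spots, 4 of 31 factors were lower beside 508 of 17717 gene names. Over probes above background on both arrays, these counts were 4 of 29 and 483 of 16890. Signal over background limits Dlx6, Hmx2, Hmx3, Tbx20 and Isl1 to bounds, which normexp did not keep (ratios 0.871, 0.201, 0.923, 0.227 and 1.92). No paired analysis was possible because there was a single array of each group.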
